A study of Homo sapiens with 12 samples.

Results

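The marked chromatin around the genes of 5 nuclear receptors was described in HepG2, a long-established human cell line derived from a hepatocellular carcinoma. The receptors were the xenobiotic sensors NR1I2 (pregnane X receptor) and NR1I3 (constitutive androstane receptor), the shared partner RXRA (retinoid X receptor alpha), and the lipid sensors PPARA (peroxisome proliferator-activated receptor alpha) and NR1H3 (liver X receptor alpha). The members were all peaks of 3 deposited lists, for H3K27ac, H3K4me1 and H3K4me3, that had at least 1 bp within 50 kb of a gene start in GRCh37. The starts were position 119499331 on chromosome 3 for NR1I2, 161208000 on chromosome 1 for NR1I3, 137218309 on chromosome 9 for RXRA, 46546424 on chromosome 22 for PPARA and 47269851 on chromosome 11 for NR1H3. NR1I3 is read from the minus strand and the others from the plus strand. There were 196 such peaks among 273822 in all: 57 of H3K27ac, 115 of H3K4me1 and 24 of H3K4me3.

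The study profiled untreated HepG2 cells by chromatin immunoprecipitation and sequencing in 12 libraries, 3 for each mark and 3 controls. The controls have input in their titles but an anti-mouse IgG as their antibody, so their kind is uncertain, and they gave no values of their own here. Each list pooled the 3 libraries of its mark, going by its name, so there was no replicate error for any value below and no difference was tested. The depth behind the lists is unknown. The signal value printed for a peak is the one the authors deposited, and it ranks peaks only within its own list.

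Nuclear receptors are transcription factors whose activity is set by small lipophilic molecules. The pregnane X receptor and the constitutive androstane receptor respond to drugs and other foreign compounds and switch on genes for their oxidation, conjugation and export in the liver. PPARA responds to fatty acids and drives their oxidation, and the liver X receptor responds to oxysterols and drives cholesterol efflux and fatty acid synthesis. Each of these 4 binds DNA as a pair with a retinoid X receptor, of which RXRA is the main form in liver. Their binding sites are repeats of a short half-site, AGGTCA. H3K4me3 is found mainly at promoters, H3K4me1 mainly at enhancers and promoter flanks, and H3K27ac at both where they are active.

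The promoter sequences of the 5 genes are shown because they differ widely in CG content, and the marks at the starts differed as well. They were taken from RefSeq in GRCh38.p14 as the 250 bases before a listed start, and all 5 genes were found there, with 11 listed starts. The peaks are in GRCh37, so sequence and peaks were joined by gene name only, and a listed start was not placed among the peaks. Capitals mark CG dinucleotides, and each run reads 5′ to 3′ on the strand of the gene. The windows are chr3:119781851-119782100 (plus strand) for NR1I2, chr1:161238204-161238453 (minus strand) for NR1I3, chr9:134326205-134326454 (plus strand) for RXRA, chr22:46150276-46150525 (plus strand) for PPARA, and chr11:47248050-47248299 and chr11:47248645-47248894 (plus strand) for NR1H3.

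NR1I2, upstream start: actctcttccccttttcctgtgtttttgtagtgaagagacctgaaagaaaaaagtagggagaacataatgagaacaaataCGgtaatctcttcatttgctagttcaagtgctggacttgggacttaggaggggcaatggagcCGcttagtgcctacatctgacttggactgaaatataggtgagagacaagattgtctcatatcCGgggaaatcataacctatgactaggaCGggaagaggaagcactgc

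NR1I3, listed start: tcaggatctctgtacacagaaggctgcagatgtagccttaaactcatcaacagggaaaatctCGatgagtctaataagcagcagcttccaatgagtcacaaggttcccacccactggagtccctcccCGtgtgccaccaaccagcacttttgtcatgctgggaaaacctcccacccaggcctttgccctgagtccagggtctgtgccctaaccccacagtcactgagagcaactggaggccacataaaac

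RXRA, upstream start: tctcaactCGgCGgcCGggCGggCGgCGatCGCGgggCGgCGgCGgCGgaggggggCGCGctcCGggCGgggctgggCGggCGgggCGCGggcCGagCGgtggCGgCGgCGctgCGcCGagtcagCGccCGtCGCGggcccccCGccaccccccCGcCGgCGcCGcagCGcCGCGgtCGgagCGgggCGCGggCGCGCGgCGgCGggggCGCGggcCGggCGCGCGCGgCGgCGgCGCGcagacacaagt

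PPARA, upstream start: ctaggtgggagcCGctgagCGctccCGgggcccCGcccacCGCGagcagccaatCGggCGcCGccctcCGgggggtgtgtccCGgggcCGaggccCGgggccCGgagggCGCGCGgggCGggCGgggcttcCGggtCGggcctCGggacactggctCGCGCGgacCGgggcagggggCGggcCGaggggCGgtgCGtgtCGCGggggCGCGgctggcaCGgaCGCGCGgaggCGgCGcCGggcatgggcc

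NR1H3, most upstream start: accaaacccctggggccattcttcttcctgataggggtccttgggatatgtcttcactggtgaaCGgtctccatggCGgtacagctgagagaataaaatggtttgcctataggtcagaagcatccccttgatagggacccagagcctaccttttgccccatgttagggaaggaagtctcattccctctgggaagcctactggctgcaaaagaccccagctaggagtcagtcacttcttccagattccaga

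NR1H3, next start: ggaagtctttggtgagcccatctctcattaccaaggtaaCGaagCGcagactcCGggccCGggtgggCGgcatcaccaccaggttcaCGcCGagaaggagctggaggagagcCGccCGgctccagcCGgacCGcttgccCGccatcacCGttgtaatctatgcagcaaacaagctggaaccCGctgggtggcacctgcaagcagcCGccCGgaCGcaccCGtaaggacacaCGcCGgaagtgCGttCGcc

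The RXRA window held 59 CG dinucleotides and 89.2% G or C, and only 0.0114% of the 35116 windows in the table held as many CG. The PPARA window held 41 (84.4% G or C), a number reached by 1.73% of windows, and the next PPARA start held 45. The NR1I2 window held 4, the NR1I3 window 2 and the most upstream NR1H3 window 2, against a median of 11 over the table. The next NR1H3 start held 22 and the other two NR1H3 starts 6 each. The downstream starts of NR1I2 and RXRA held 0 and 7. The upstream RXRA start and each listed PPARA start were thus CG-dense, while NR1I2 and NR1I3 were CG-poor at each listed start.

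Motifs were searched on both strands of the same 250 bases. The half-site AGGTCA, which is also part of each repeat searched, was in 1 of the 11 windows, at the most upstream NR1H3 start 140 bases before it, and in 12.1% of all windows. Direct repeats of it with 1, 3 or 4 bases between the copies were in none of the 11 and in 0.0171%, 0.0057% and 0.0142% of all windows. The letters TATAAA were also in none of them, against 10.7% of all windows. CCGCCC, the core of a GC box, was in 6 of the 11, with 6 matches each in the upstream RXRA and PPARA windows, and in 42.6% of all windows. CAAAG was in 1 NR1I3 and 2 NR1H3 windows, against 42.1%. A match is a run of letters and not a site shown to be bound.

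At the starts themselves, the 5 genes showed 5 different combinations of marks. The NR1H3 start lay inside peaks of all 3 marks. The NR1I3 start lay inside H3K27ac and H3K4me1 peaks with no H3K4me3 nearby, the NR1I2 start inside H3K4me1 alone and the PPARA start inside H3K4me3 alone. The RXRA start lay inside no peak, in a short gap between strong peaks on either side. The number of combinations depends on how peaks were split and on asking for the exact base. With peaks at most 1000 bp apart joined, the RXRA and PPARA starts both lay inside H3K27ac and H3K4me3, which left 4 combinations. Within 2000 bp, a distance added after the data had been seen, all 5 starts had H3K27ac and H3K4me1. All but NR1I3 also had H3K4me3 within that distance, so most of the differences concern the exact position. With peaks as listed, H3K27ac contained 2 of the 5 starts, H3K4me1 contained 3 and H3K4me3 contained 2. Those lists cover 3.04%, 6.47% and 1.49% of all positions of chromosomes 1 to 22 and X. A position in the genome is not a gene start, and the share of all gene starts inside a peak was not analysed here.

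**Figure D1:**
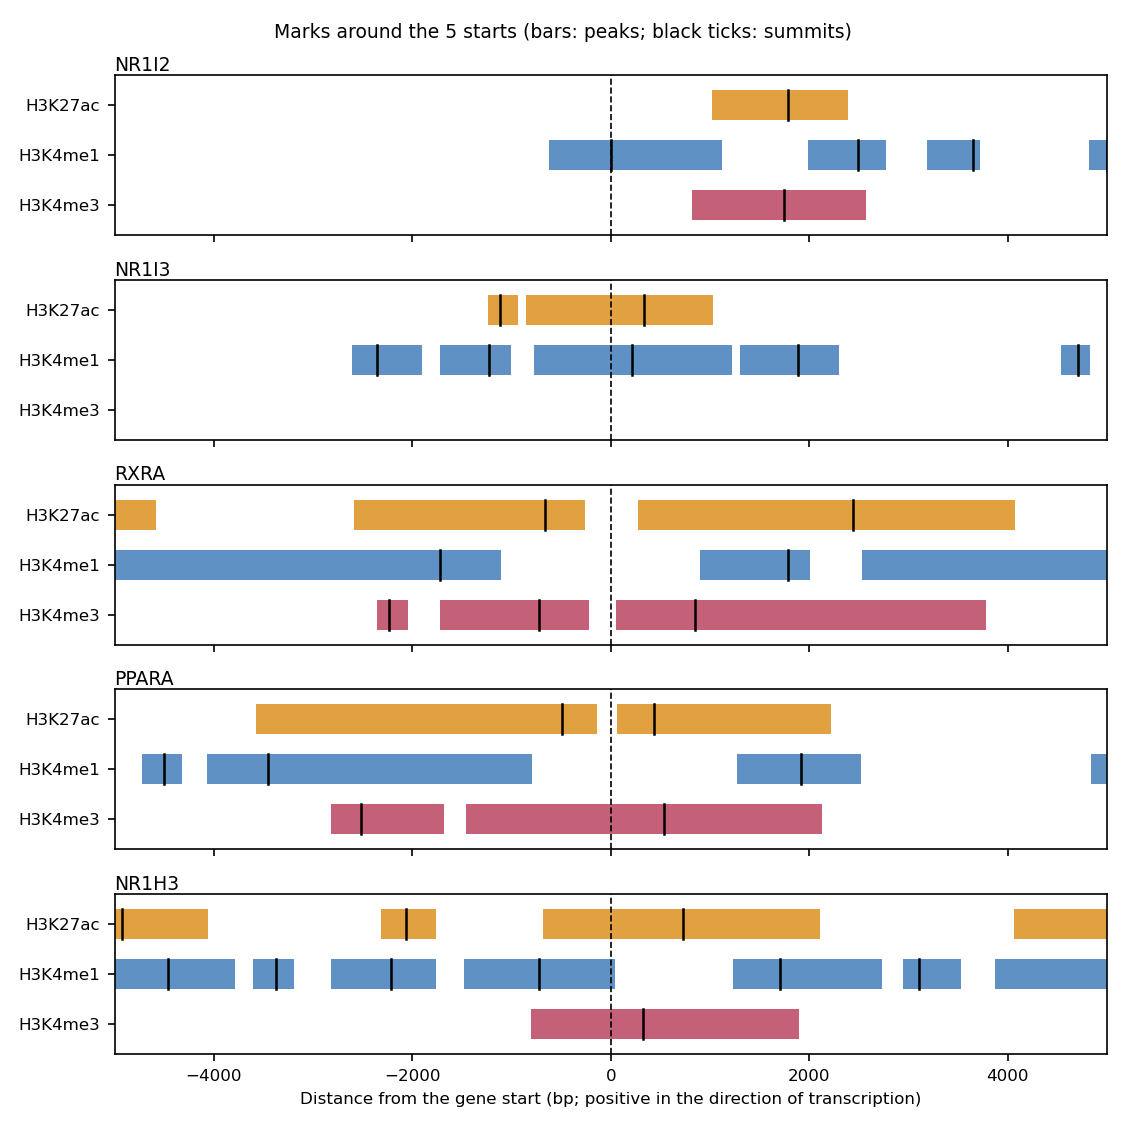
Peaks of the 3 marks within 5000 bp of each start, by distance in bp and in the direction of transcription; bars are peaks and black ticks their summits. The RXRA start falls in a gap of all 3 marks, the PPARA start in a gap of H3K27ac and H3K4me1 under an H3K4me3 peak, and NR1I3 has no H3K4me3 peak in view.

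NR1I2 had the least marked window of the 5, with 3 H3K27ac, 13 H3K4me1 and 1 H3K4me3 peak. Its start coincided with the summit of an H3K4me1 peak that reached from 627 bp upstream to 1123 bp downstream (chromosome 3, signal value 4.70). The only H3K4me3 peak of the window began 817 bp downstream and ended at 2571 bp (119500148 to 119501902), with a signal value of 15.2, close to the middle of its list (52.0% of H3K4me3 peaks were lower). An H3K27ac peak of 1367 bp lay wholly inside it, from 1024 to 2390 bp downstream, with a signal value of 4.02, and the 2 summits were 41 bp apart. H3K4me3 and H3K27ac of the pregnane X receptor gene thus lay downstream of the start used here, and only H3K4me1 lay on it. RefSeq lists 2 starts for NR1I2, and whether either lies under these downstream peaks was not determined. The gap therefore belongs to the start used here and does not show a promoter without H3K4me3.

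The strongest acetylation of the NR1I2 window was not at the start. An H3K27ac peak of 4374 bp lay 12864 to 17237 bp downstream (119512195 to 119516568), with a signal value of 24.8, higher than 91.1% of the list. It overlapped H3K4me1 and no H3K4me3, the combination called enhancer-like here. Both H3K4me1 peaks under it were strong for their list, with signal values of 6.55 and 9.65, and the second was higher than 98.6% of H3K4me1 peaks. Another enhancer-like peak lay 45189 to 46175 bp downstream, with an H3K27ac signal value of 4.16. Upstream of NR1I2 there was no H3K27ac or H3K4me3 peak in 50 kb, and 2 H3K4me1 peaks, of 2.74 and 3.89. The 37.0 kb farthest upstream held no peak of any mark. CFAP91 and GSK3B are its neighbouring protein-coding genes in RefSeq GRCh38.p14, and peaks were not assigned to them.

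NR1I3 had an acetylated start without H3K4me3. The H3K27ac peak there reached from 858 bp upstream to 1029 bp downstream (chromosome 1, 161206971 to 161208858), with its summit 336 bp downstream and a signal value of 11.9, higher than 80.1% of the list. An H3K4me1 peak covered nearly the same stretch, from 775 bp upstream to 1218 bp downstream, with a signal value of 5.51 and its summit 216 bp downstream. The nearest H3K4me3 peaks began 10381 bp downstream and 12097 bp upstream. The start of the constitutive androstane receptor gene thus carried the same combination as regions classed as enhancer-like, which made up 59.8% of all H3K27ac peaks.

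The strongest H3K27ac and H3K4me3 peaks of the NR1I3 window lay 10 to 22 kb downstream of its start. An H3K27ac peak of 10156 bp reached from 12318 to 22473 bp (161185527 to 161195682), with a signal value of 40.1, and was the 288th widest of 66513. Under it and beside it lay H3K4me3 peaks of 40.6 (10381 to 13725 bp) and 66.8 (13907 to 18145 bp). The second was higher than 97.2% of H3K4me3 peaks and was the only one of the 24 members in the top 10% of that list. Another pair followed between 34634 and 38385 bp downstream, with signal values of 24.5 for H3K27ac and 37.0 for H3K4me3. The RefSeq genes next to NR1I3 on one side are TOMM40L and then APOA2, which encodes an apolipoprotein of high-density lipoprotein, and on the other PCP4L1. With no annotation of the peaks' build, these strong peaks were not assigned to NR1I3 or to a neighbour.

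Most of the 9 H3K4me1 peaks lying wholly upstream of NR1I3 overlapped neither other mark. This is also common in the list, where 61.6% of H3K4me1 peaks did so, against 13 of the 25 in this window. The strongest H3K4me1 peak of the window lay 16725 to 18233 bp upstream with a signal value of 8.65, higher than 97.4% of its list, and overlapped neither other mark. A further H3K4me1 peak of 6.93 lay 21831 to 23756 bp upstream, also alone. The only upstream H3K4me3 peak with acetylation, 12097 to 13635 bp away, had a signal value of 7.06, and the H3K27ac peak within it had one of 3.00. A narrow H3K4me3 peak of 313 bp, 20438 to 20750 bp upstream, was the only H3K4me3 member that overlapped neither other mark (3.78% of the list did so), and its signal value was 2.21.

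RXRA, the partner gene, had strong promoter peaks split around its start. H3K4me3 ended 216 bp upstream and began again 57 bp downstream, leaving 272 bp without a peak. H3K27ac left a gap of 540 bp and H3K4me1 one of 2001 bp around the same point. The downstream H3K4me3 peak of 3727 bp (chromosome 9, 137218366 to 137222092) had a signal value of 50.1 and the upstream one of 1504 bp had 33.1. The H3K27ac peak from 278 to 4071 bp downstream (137218587 to 137222380) was the strongest H3K27ac member of all 57, with a signal value of 51.1, rank 741 of 66513. Its upstream counterpart, from 263 to 2584 bp, had 23.2. The gap lay at the start of the gene with the most CG-dense promoter shown above, and a part of base composition in it was not tested.

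The RXRA window was also the richest in H3K4me1. It held 28 H3K4me1 peaks that covered 60.9 kb, 60.9% of the window, with 38.1 kb of this downstream. One of them lay 47482 to 58114 bp downstream (137265791 to 137276423) and had a signal value of 19.0, the 4th highest of 182592 in the list. It was 10633 bp wide, overlapped H3K27ac and no H3K4me3, and reached past the edge of the window. The acetylation inside it was modest by comparison with its own list: the H3K27ac peaks of the window that overlapped it had signal values of 2.53 and 4.28, the latter above 60.3% of H3K27ac peaks. A second wide H3K4me1 peak, 2527 to 13055 bp downstream, had 12.5 (rank 388), and peaks of 10.6, 11.4 and 10.6 followed between 26025 and 45037 bp. In all, 8 of the 28 were in the top 10% of the list.

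The RXRA enhancer-like peaks were weaker than the 2 H3K27ac peaks beside its start, by the authors' signal values. Of the 17 H3K27ac peaks of the window 14 were enhancer-like (82.4%, against 59.8% of the list). Many of the peaks lay close together, and joining those at most 1000 bp apart left 7 H3K27ac regions. The strongest of the 14, 37332 to 40286 bp downstream (137255641 to 137258595), had a signal value of 13.9. The other 13 ranged from 1.70 to 4.28. The remaining promoter-like peak, 5520 to 11132 bp downstream, had 8.52, below the strongest enhancer-like peak. Upstream of 6061 bp there was no H3K27ac peak, while H3K4me1 went on to the edge of the window, with a peak of 4958 bp and signal value 9.16 that lay 30846 to 35803 bp upstream and overlapped neither other mark. Joining H3K4me1 peaks at most 1000 bp apart made a region of 26.5 kb from 36718 to 63194 bp downstream, the 130th longest of 111705.

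PPARA had 1 strong H3K4me3 peak over its start and a long stretch of H3K4me1 upstream. The H3K4me3 peak reached from 1459 bp upstream to 2133 bp downstream (chromosome 22, 46544965 to 46548557), with its summit 541 bp downstream and a signal value of 50.9, above 85.9% of its list. H3K27ac was split around the start: 1 peak ended 135 bp upstream (signal value 17.1) and the next began 60 bp downstream (18.3), which left 194 bp without H3K27ac. H3K4me1 was absent from 798 bp upstream to 1276 bp downstream. Its upstream flank there was the strongest H3K4me1 peak of the window, with 9.90, and its downstream flank had 4.81.

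The H3K27ac peak of the PPARA window with the highest signal value, 18.9, lay 19304 to 22710 bp downstream (46565728 to 46569134). The peak beginning 60 bp downstream of the start was close to it, with 18.3, and without replicates their order is uncertain. A weak H3K4me3 peak of 3.37 lay inside the farther peak, which was therefore classed as promoter-like, with H3K4me1 of 8.34 over most of the same stretch. The strongest enhancer-like H3K27ac peak lay 16843 to 18637 bp upstream with 8.19. It sat within an H3K4me1 peak of 16863 bp, from 12595 to 29457 bp upstream (46516967 to 46533829), the 24th widest of 182592. With peaks at most 1000 bp apart joined, 11 H3K4me1 peaks formed a region of 35.5 kb from 12595 to 48139 bp upstream, the 41st longest of 111705. Of the H3K4me1 bases in the window, 41.2 kb lay upstream of the start and 15.1 kb downstream. None of the 12 H3K27ac peaks was in the top 10% of its list, while 9 of the 26 H3K4me1 peaks were.

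PPARA had 6 further H3K4me3 peaks, all weaker, with signal values from 1.75 to 7.44. Each of the 6 overlapped both H3K27ac and H3K4me1, as did 74.1% of all H3K4me3 peaks and 23 of the 24 members. The strongest of them lay 42554 to 44425 bp upstream inside an H3K27ac peak of 14.5. The neighbouring protein-coding genes in RefSeq are LOC124905135 on the upstream side of PPARA and CDPF1 on the downstream side, and peaks were not assigned to them.

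NR1H3 had all 3 marks at its start and more strong H3K27ac farther into the window. The H3K27ac peak at the start reached from 686 bp upstream to 2110 bp downstream (chromosome 11, 47269165 to 47271961), with a signal value of 29.5, above 93.6% of its list. The H3K4me3 peak covered 799 bp upstream to 1900 bp downstream with 32.6, and 2587 bases were shared by these 2 peaks. The H3K4me1 peak containing the start ended 41 bp past it and had its summit 722 bp upstream, with a signal value of 7.20. The start therefore lay at the inner edge of an H3K4me1 flank, and the other flank began 1227 bp downstream. ACP2 is a RefSeq neighbour on one side and MADD on the other.

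Farther downstream, NR1H3 had an H3K27ac peak of 7265 bp from 4063 to 11327 bp (47273914 to 47281178), with a signal value of 17.9. It held a weak H3K4me3 peak of 2.33 and a stronger one of 15.8 from 8915 to 10503 bp. Its H3K4me1 peak of 11.3, from 3871 to 9485 bp, was the strongest H3K4me1 of the window and ranked 938 in the list. The strongest H3K27ac of the window, 32.9, lay 19337 to 23414 bp downstream (47289188 to 47293265), together with the strongest H3K4me3, 44.5. RefSeq lists 4 starts for NR1H3, and which of these peaks lies at which listed start was not determined.

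Upstream of NR1H3 a pair of peaks 31056 to 34452 bp away had signal values of 18.8 for H3K27ac and 23.7 for H3K4me3. The strongest enhancer-like H3K27ac peak of the window lay 16558 to 17657 bp downstream with 4.44. All 9 enhancer-like peaks of NR1H3 had signal values between 1.75 and 4.44, while its 4 promoter-like peaks had 17.9 or more. Signal values by class over the whole list were not analysed here. The other windows did not show so clean a split. At NR1I2 the enhancer-like peaks (4.16 and 24.8) were above the promoter-like one (4.02). At NR1I3, RXRA and PPARA the ranges of the classes overlapped. One H3K27ac peak of NR1H3, 10921 to 11207 bp upstream with a signal value of 1.89, overlapped neither methylation. It was the only such peak among the 57.

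**Figure D2:**
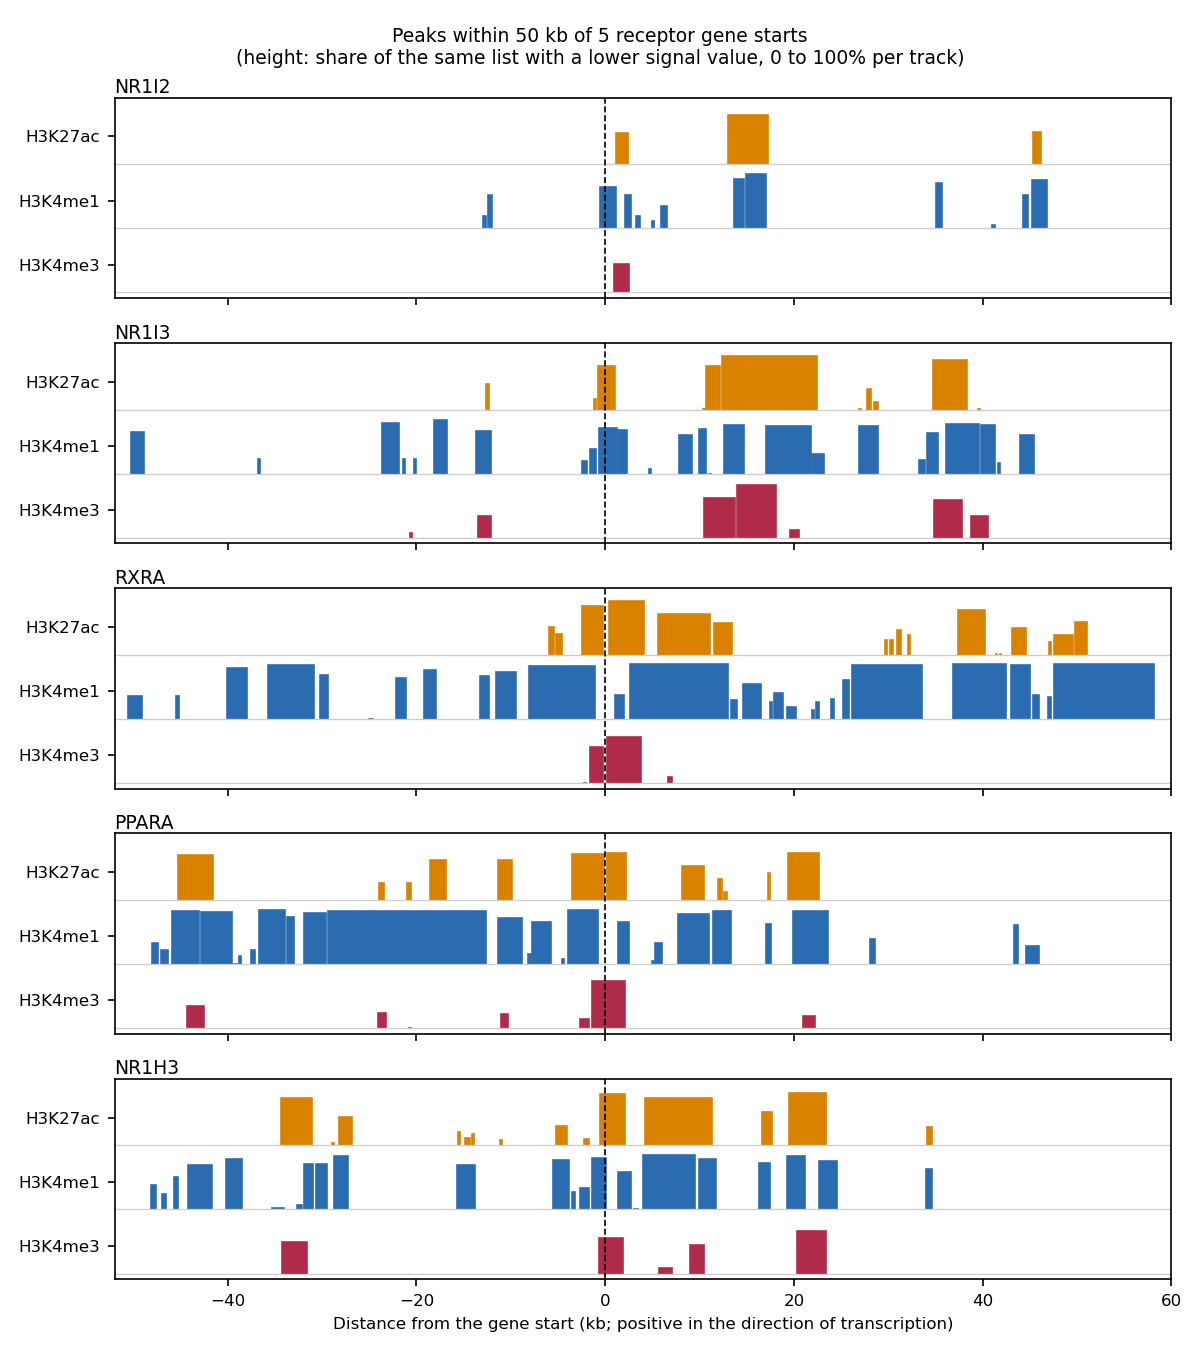
Peaks of the 3 marks within 50 kb of each start, by distance in kb and in the direction of transcription; the height of a bar is the share of the same list with a lower signal value, from 0 to 100% in each track. NR1I2 is empty of H3K27ac upstream, the strongest H3K27ac and H3K4me3 peaks of NR1I3 lie 10 to 22 kb downstream, and H3K4me1 fills most of the RXRA window and of the PPARA upstream side.

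The windows of 4 of the 5 receptor genes had far more marked bases than that of NR1I2. H3K27ac covered 24.5 kb at RXRA, 24.4 kb at NR1H3, 21.3 kb at PPARA, 20.0 kb at NR1I3 and 6.73 kb at NR1I2. H3K4me1 covered 60.9 kb at RXRA, 56.2 kb at PPARA, 34.5 kb at NR1H3, 34.1 kb at NR1I3 and 12.1 kb at NR1I2. For H3K4me3 the order was NR1I3 (15.5 kb), NR1H3 (11.7 kb), PPARA (10.1 kb), RXRA (6.09 kb) and NR1I2 (1.75 kb). These lengths describe windows, and the peaks in them were not assigned to the receptor genes. In the NR1I3 window 13.6 kb of H3K4me3 lay downstream, and the nearest H3K4me3 peak was 10381 bp from the start. Without replicates it cannot be said which neighbours in these orders differ. RXRA led in both H3K27ac and H3K4me1 while it was next to last in H3K4me3.

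Windows of the same length tiled along the chromosomes gave the background. Among the 11304 tiles that held an H3K4me3 peak, the median covered length was 4.50 kb of H3K27ac, 10.5 kb of H3K4me1 and 3.08 kb of H3K4me3. The H3K27ac length of the RXRA window was reached by 4.87% of these tiles, that of NR1H3 by 5.02%, of PPARA by 7.55%, of NR1I3 by 8.38% and of NR1I2 by 38%. The H3K4me1 length was reached by 0.54% of tiles for RXRA and 1.09% for PPARA, against 9.3% for NR1H3, 9.57% for NR1I3 and 45.5% for NR1I2. For H3K4me3 the shares were 1.65% for NR1I3, 4.08% for NR1H3, 6.05% for PPARA, 20.2% for RXRA and 70.3% for NR1I2. NR1I2 was therefore an ordinary window for all 3 marks, and RXRA and PPARA stood far toward the upper end for H3K4me1. The windows are centred on gene starts and the tiles are not, so the shares are a description.

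**Figure D3:**
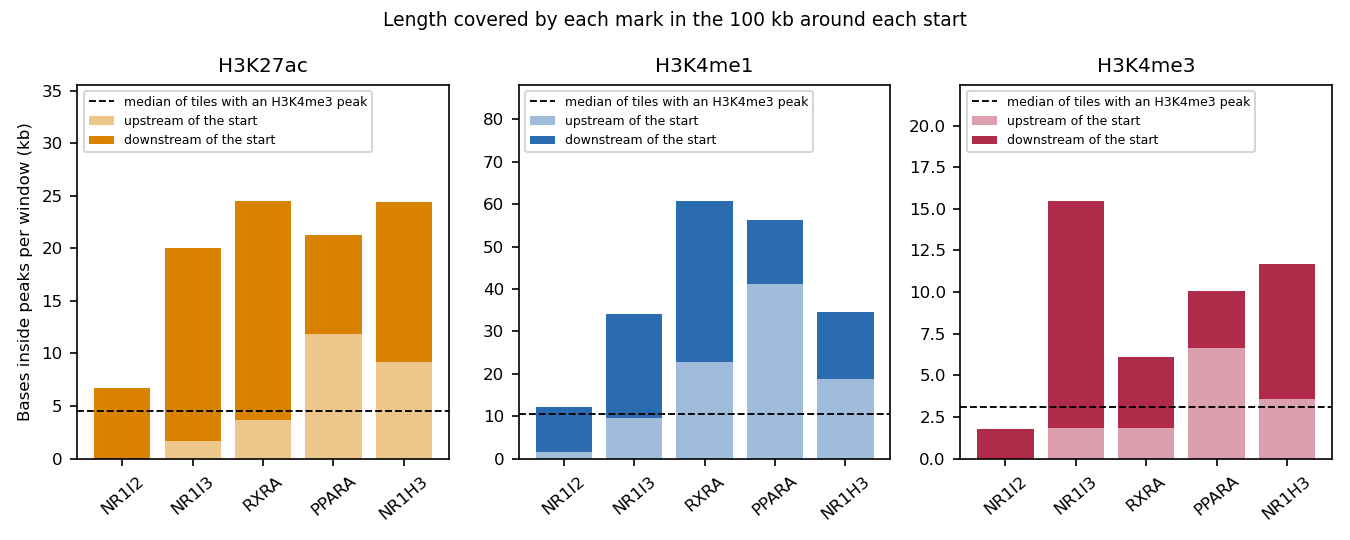
Bases inside peaks of each mark (kb) in the 50 kb to either side of each start, split into upstream (pale) and downstream (dark); the dashed line is the median of tiles of the same length that hold an H3K4me3 peak. H3K27ac at NR1I2, NR1I3 and RXRA lies mostly downstream, and H3K4me1 at PPARA mostly upstream.

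Acetylation was placed unevenly around the starts. NR1I2 had all of its 6.73 kb of H3K27ac downstream, NR1I3 had 18.4 kb downstream and 1.64 kb upstream, and RXRA had 20.9 kb and 3.67 kb. NR1H3 had 15.2 kb downstream and 9.21 kb upstream. PPARA was the exception, with 9.40 kb downstream and 11.9 kb upstream. Any of the 3 marks covered 63.3% of the RXRA window, 58.9% at PPARA, 39.9% at NR1H3, 39.2% at NR1I3 and 13.8% at NR1I2. H3K4me1 with neither other mark on the same bases made up 38.5 kb at RXRA and 37.1 kb at PPARA, the windows with the most H3K4me1. It made up 16.1 kb at NR1I3, 15.4 kb at NR1H3 and 6.72 kb at NR1I2.

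The combinations of marks on the member peaks were near those of the whole lists, with some exceptions. Of the 57 H3K27ac peaks 35 were enhancer-like (61.4%, against 59.8% of the list) and 21 overlapped H3K4me3, called promoter-like (36.8%, against 31.7%). The remaining peak overlapped neither (1.75%, against 8.52%). Within single genes the balance varied, on few peaks each. Enhancer-like were 14 of 17 H3K27ac peaks at RXRA (82.4%) and 9 of 14 at NR1H3 (64.3%, near the list). Promoter-like were 7 of 12 at PPARA (58.3%) and 6 of 11 at NR1I3 (54.5%). The 17 at RXRA formed 7 regions when peaks at most 1000 bp apart were joined. Of the H3K4me1 peaks 64 of 115 overlapped neither other mark (55.7%, against 61.6%), and 28 overlapped both (24.3%, against 13.9%). Of the H3K4me3 peaks 23 of 24 overlapped both (95.8%, against 74.1%). Peaks in 1 window lie close together and are not independent of each other.

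H3K4me1 was absent from the summits of the stronger H3K4me3 members and present at nearly all of the weaker. Of the 11 H3K4me3 members in the stronger 50% of their list, with signal values from 15.2 to 66.8, none had its summit inside an H3K4me1 peak, against 9.78% of that 50% of the list. Of the 13 in the weaker 50%, from 1.65 to 7.44 in signal value, 12 did, against 71.4% of the list. The exception was the isolated peak upstream of NR1I3. H3K27ac contained the summits of all 11 stronger members (97.4% of the list) and of 12 of the 13 weaker (55.5%). The whole list shows the same contrast in H3K4me1, so it is not particular to these genes. Each receptor gene except NR1I2 had members of both kinds, and the split at the middle of the list was chosen after the data had been seen.

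By signal value, the members were ordinary for H3K27ac and high for H3K4me1. The median over the 57 H3K27ac members was 3.13, against 3.15 over the list, and 7 (12.3%) were in the top 10% of the list. The median over the 115 H3K4me1 members was 4.59, against 3.42, and 29 (25.2%) were in the top 10%. The median over the 24 H3K4me3 members was 7.25, against 13.3, and 1 (4.17%) was in the top 10%. The 29 strong H3K4me1 peaks lay mainly in 3 windows: 9 of 26 peaks at PPARA, 8 of 28 at RXRA and 7 of 23 at NR1H3. NR1I3 had 3 of 25 and NR1I2 2 of 13, shares nearer the 10% of the list. The median H3K4me1 signal value per gene ran from 3.88 at NR1I2 to 5.19 at NR1H3. The highest H3K27ac value was 51.1 at RXRA, followed by 40.1 at NR1I3, 32.9 at NR1H3, 24.8 at NR1I2 and 18.9 at PPARA.

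**Figure D4:**
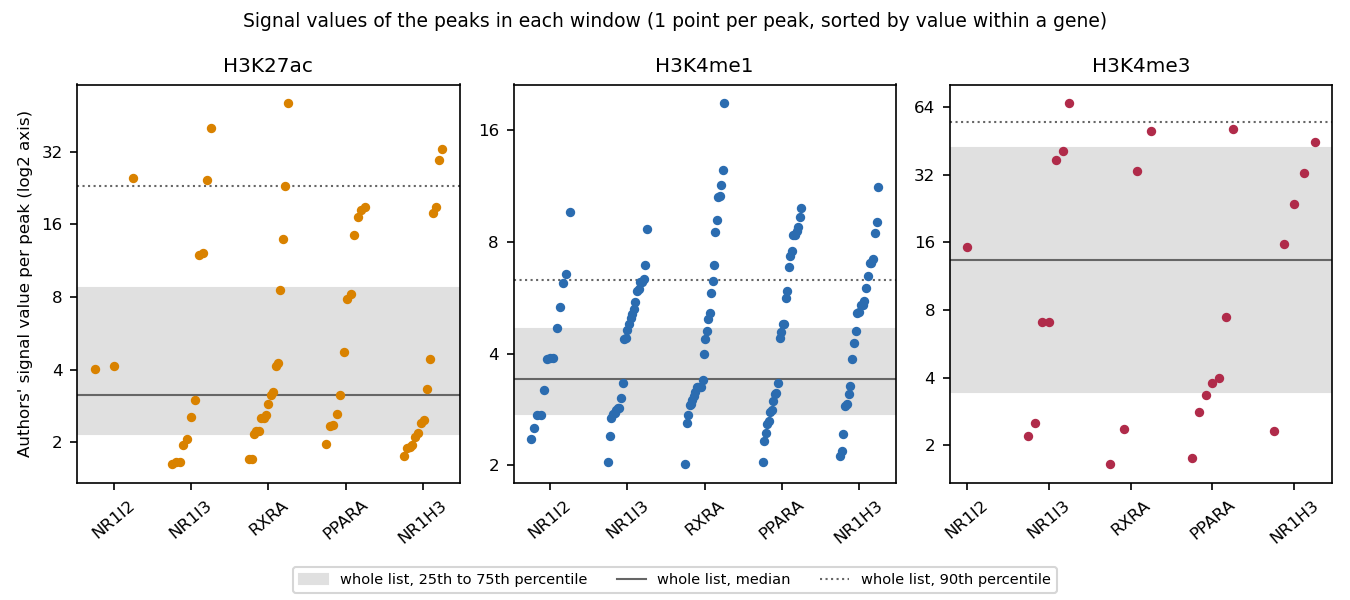
The authors' signal value of each member peak (log2 axis), by gene and mark, 1 point per peak sorted by value within a gene; grey bands and lines are the 25th to 75th percentile, the median and the 90th percentile of the whole list. Each gene has H3K4me1 points past the 90th percentile line, with the highest at RXRA, and 1 H3K4me3 point, at NR1I3, lies above it.

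The edge of the windows cut through 1 very strong peak, the H3K4me1 peak of 19.0 downstream of RXRA described above. Other peaks also crossed the edge. They were H3K4me1 peaks from 48851 to 50344 bp upstream of NR1I3 (signal value 4.82) and from 49091 to 50662 bp upstream of RXRA (3.24). The H3K27ac peak from 49734 to 51053 bp downstream of RXRA (4.28) crossed it too. Just outside were an H3K4me1 peak of 6.31 beginning 50167 bp downstream of PPARA, the H3K27ac peak of 3.95 at 50511 bp within it, and an H3K4me1 peak of 3.99 at 50570 bp downstream of NR1I3.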

How the data were processed

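Per the labels, the marks were H3K27ac, H3K4me1 and H3K4me3 with 3 libraries each, beside 3 controls. The values were the 3 pooled peak lists the authors deposited. MACS2 and hg19 (GRCh37) are named in the submitters' processing notes, and aligner, threshold and use of the controls are not given in the sources used here. The deposited lists hold for each peak a signal value of unstated reference, the −log10 q-value, a display score and a summit; the score was not used. Low thresholds and pooling can add weak peaks, and deeper libraries lengthen a list. Depth per library is unknown.

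Peaks on chromosomes 1 to 22 and X were used, with positions counted from 1. Sharing 1 bp counted as overlap. Ranks, top 10% and medians are within a list. Tiles were 100001 bp long, up to the last peak of each chromosome. Upstream and downstream follow the strand of the gene. The named peaks were, for each gene and mark, the one at or nearest the start and the strongest, with the strongest enhancer-like H3K27ac peak, and any others were chosen after their values were seen. The members and lists were chosen with earlier results of these data known. Other genes of the receptor pathways, and liver marker genes as a check of the cell line, were not placed, since an annotation of GRCh37 was not used here. RefSeq GRCh38.p14 served for names, neighbours and promoter letters. Analyses used Python 3.11.15, numpy 2.4.6, pandas 2.3.3 and matplotlib 3.10.9, and the overlap code was tested on simulated data. Alternatives were windows of 25 kb, a −log10 q-value of at least 5, taking each list's stronger 50%, placing by summit, joining peaks at most 1000 bp apart, 50% of a region covered, and a peak within 500 bp of a start. Windows of 100 kb and a distance of 2000 bp were added after the data had been seen.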

Additional observations from a re-analysis of the deposited data

How the results depend on the processing

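No paired analysis was possible because each mark has 1 pooled list with no value per library, so the shared replicate numbers could not be used. Over 9 counts, 51 alternative values were computed, of which 27 stayed within 1.5 times the reported count and 24 moved further. A −log10 q-value of at least 5 gave 23 enhancer-like and 40 H3K4me1-only regions. The stronger 50% of each list gave 27 H3K27ac, 69 H3K4me1 and 11 H3K4me3 peaks, with 15 enhancer-like, 12 promoter-like and 37 H3K4me1-only regions. Windows of 25 kb gave 35 H3K27ac and 66 H3K4me1 peaks, 17 enhancer-like and 32 H3K4me1-only regions. Joining peaks at most 1000 bp apart gave 36 H3K27ac and 54 H3K4me1 peaks, 19 enhancer-like and 23 H3K4me1-only regions, and put 4 starts inside H3K27ac. Counting a peak within 500 bp also gave 4 starts for H3K27ac. The added distance of 2000 bp gave 5 starts for H3K27ac, 5 for H3K4me1 and 4 for H3K4me3. Added windows of 100 kb gave 91, 198 and 39 peaks for H3K27ac, H3K4me1 and H3K4me3. Fewer or more peaks follow from how the filters, joins and windows are built. With 25 kb the enhancer-like and promoter-like counts were equal, at 17 each, and under the other alternatives run for both the enhancer-like count was the larger. The gaps at the RXRA and PPARA starts depend on how peaks were split, since joining closed the H3K27ac gap at both and the H3K4me3 gap at RXRA. The depth of the lists is unknown, so a stretch without a peak shows only that none was listed.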

Other observations

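Between 50 and 100 kb from the starts, NR1I2 remained sparse, with 1 H3K27ac peak, of signal value 2.03, and no H3K4me3 peak. It had 2 H3K4me1 peaks there, and the stronger, which overlapped that H3K27ac peak, had 7.15, above 93.8% of its list. NR1I3 had 8 H3K27ac and 6 H3K4me3 peaks there, the strongest H3K27ac of 42.9 lying 83243 to 85192 bp downstream. NR1H3 had 10 H3K27ac and 4 H3K4me3 peaks, with an H3K27ac peak of 8028 bp and signal value 48.3 (47204037 to 47212064 on chromosome 11), which is higher than any inside its 50 kb window. RXRA had no H3K4me3 peak in that range and 4 H3K27ac peaks of at most 4.78, while its strongest H3K4me1 peak there, upstream and alone, had 12.5 and ranked 398. PPARA had 11 H3K27ac peaks, the strongest of 19.7 overlapping an H3K4me3 peak of 42.2 near 100 kb downstream. These values belong to a range chosen after the data had been seen, and the peaks were not assigned to genes.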
